A study of Mus musculus with 2 samples.

Results

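The anaphase-promoting complex (APC/C) is the ubiquitin ligase that marks cyclins, securin and other cell cycle proteins for destruction. Cdc20 and Fzr1 (also called Cdh1) are the activators that bring substrates to it, Cdc20 mainly in mitosis and Fzr1 from late mitosis through G1. Fbxo5 (Emi1) and Fbxo43 (Emi2) are related F-box proteins that inhibit it, Fbxo5 in S and G2 of dividing cells and Fbxo43 best known for holding the mature oocyte in metaphase of meiosis. Ube2c and Ube2s are the E2 enzymes that start and lengthen its ubiquitin chains. These 6 genes, chosen by their symbols in the deposited gene metadata, are described here out of 32287 genes in the table.

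The cells came from primary cultures of the lateral ventricular wall of newborn mice (P0-P2), which hold the progenitors of ependymal cells, the multiciliated cells lining the brain ventricles. Replicate 1 was C57BL/6N and replicate 2 was C57BL/6J; both had spent 2 days in medium without serum, and no other condition was studied. The title of the series concerns an endocycle, a cell cycle variant, in differentiating multiciliated cells, so the comparisons here set stages of that lineage against dividing cells of the same cultures. The labels call the samples duplicates without naming a litter or day, and the 2 libraries also differ in substrain. The fits take out the mean difference between the libraries. So p-values rest only on how far differences between populations vary from 1 of these 2 libraries to the other, and on no further culture.

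Transcripts were counted as unique molecular identifiers (UMIs). The 12028 cells of replicate 1 held 173510950 UMIs (median 12708 a cell), the 4373 cells of replicate 2 held 70611931 (median 14409), and 13 cell barcodes occurred in both libraries. The deposited metadata gives each of the 16401 cells 1 of 14 population names and 1 of 5 cell cycle classes (G0, G1, S, S/G2 and G2/M). Progenitors I and II were almost all in class G0, cycling progenitors were 39.6% and 40.6% S/G2, and mid deuterosomal cells were 78.8% and 82.7% S/G2 in replicates 1 and 2. Cycling progenitors also held 12.1% and 15.5% G0 and 21.2% and 20.5% G1 cells. Mid deuterosomal cells held 3.41% and 1.70% G0 and 0.114% and 0.567% G1 cells. Comparisons of whole populations with cycling progenitors therefore also set different class makeups side by side. Deuterosomal cells are the stage in which a cell makes its many centrioles, and MCC stands for multiciliated cell. Summed levels of 7 deuterosomal markers were highest in mid deuterosomal cells, at 2362 and 2543 CPM (UMIs scaled to a common library total). Those of 6 dividing-cell markers were 3141 and 3693 CPM in cycling progenitors, 2301 and 3403 in neuroblasts and 2115 and 4464 in oligodendrocyte precursors. They were 1079 and 1340 CPM in mid deuterosomal cells and 96.0 and 96.9 in progenitors I. The cells named microglia in replicate 1 also carried multiciliated markers, at 740 CPM against 114 CPM in replicate 2. The oligodendrocyte precursors (OPCs) of replicate 1 carried them at 409 CPM against 48.9 in replicate 2, and 5 oligodendrocyte markers at 1018 against 145 CPM. The part of these other cells' RNA in the levels of microglia and OPCs was not tested.

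All 6 genes are protein coding and lie, in mm10, at 4:118432901-118437352 (Cdc20), 10:81366222-81378516 (Fzr1), 10:5799160-5805600 (Fbxo5), 15:36150060-36164884 (Fbxo43), 2:164769898-164778822 (Ube2c) and 7:4794546-4812590 (Ube2s). Ube2c is on the plus strand and the others are on the minus strand. Cdc20 overlaps Elovl1 on the opposite strand, Fzr1 overlaps Mfsd12, Ube2c overlaps Tnnc2 and Ube2s overlaps Rpl28. No source used here states whether the counting used strand, so reads in these overlaps are uncertain. Fbxo5 and Fbxo43 overlap no annotated gene.

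Promoter sequences are shown because 5 members moved together between resting and dividing cells in the values that follow. RefSeq (GRCm38.p6) gave a start for 5 of the 6 members. The 100 bases before each RefSeq start are printed 5′ to 3′ along the gene. These starts differ from the outer ends of the gene spans given above. The stretches of Fzr1, Fbxo5 and Ube2s lie wholly inside those spans, and those of Cdc20 and Ube2c partly. The printed bases may therefore include transcribed sequence, and distances to a start depend on the annotation used. Capitals mark the cell cycle homology region TTTGAA and the CCAAT box, each on either strand, so TTCAAA and ATTGG are their reverse forms. The stretches lie at 4:118437344-118437443 (Cdc20, minus strand), 10:81378371-81378470 (Fzr1, minus), 10:5805466-5805565 (Fbxo5, minus), 2:164769829-164769928 (Ube2c, plus) and 7:4812341-4812440 (Ube2s, minus).
Cdc20: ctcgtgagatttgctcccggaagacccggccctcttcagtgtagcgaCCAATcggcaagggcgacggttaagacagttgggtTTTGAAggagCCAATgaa
Fzr1: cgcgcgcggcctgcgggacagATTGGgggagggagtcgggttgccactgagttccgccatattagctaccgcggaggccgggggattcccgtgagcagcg
Fbxo5: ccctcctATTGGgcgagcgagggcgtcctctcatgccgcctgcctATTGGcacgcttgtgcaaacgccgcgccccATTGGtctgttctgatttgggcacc
Ube2c: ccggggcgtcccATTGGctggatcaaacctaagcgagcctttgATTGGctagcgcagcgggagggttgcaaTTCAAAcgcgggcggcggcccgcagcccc
Ube2s: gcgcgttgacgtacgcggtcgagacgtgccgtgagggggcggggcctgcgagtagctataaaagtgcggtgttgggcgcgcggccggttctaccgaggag
In the window from 250 bases before to 50 after the start, TTTGAA was found in Cdc20, Ube2c and Fbxo5, where it lies after the start and outside the printed stretch. It was found in 17.9% of all 32851 RefSeq promoter entries. CCAAT was found 2 times in Cdc20, 1 time in Fzr1, 3 times in Fbxo5, 6 times in Ube2c and not in Ube2s, and at least 1 time in 37.4% of all entries. Of 7 motifs searched, these 2 are shown because of their matches. The other 5 were TTCGAA (in Ube2s, 1.56% of entries), TTCCCGC (no member, 4.60%), TTGGCGC (no member, 2.45%), GTTGCC (Fzr1 and Ube2c, 12.5%), and AACGG or AACTG (all printed members but Fbxo5, 55.1%). A match is a description of the sequence and shows no binding.

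The activators differed in how much they varied between populations, Cdc20 widely and Fzr1 little. Cdc20 was at 2.36 and 2.46 CPM in progenitors I (replicates 1 and 2 here and below), 3.47 and 2.64 in progenitors II, and 202 and 223 in cycling progenitors. In the lineage it was at 65.9 and 84.6 CPM in early deuterosomal cells, 298 and 307 in mid deuterosomal cells, and 366 and 345 in late deuterosomal cells. It was then at 7.97 and 5.62 CPM in early MCCs and 4.69 and 4.59 in MCCs. The 4 highest means were late deuterosomal cells (355 ± 14.7 CPM, SD, n = 2), mid deuterosomal cells (302 ± 6.91), cycling progenitors (212 ± 14.7) and neuroblasts (165 ± 7.91), and none of these overlapped with the next. Fzr1 had its lowest mean in progenitors I, at 21.4 and 18.4 CPM, and highest in late deuterosomal cells, at 51.1 and 49.4 CPM. It was at 39.5 and 40.4 CPM in cycling progenitors, 31.0 and 32.1 in mid deuterosomal cells, and 22.3 and 21.5 in MCCs. The ranges of late deuterosomal cells, OPCs, cycling progenitors and neuroblasts each overlapped with the next for Fzr1.

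The Emi inhibitors had their highest levels in different populations. Fbxo5 was at 118 and 151 CPM in OPCs (134 ± 23.3, SD, n = 2), 76.8 and 165 in neuroblasts (121 ± 62.4) and 88.4 and 79.5 in cycling progenitors (83.9 ± 6.32). The neuroblast range overlapped those of both others, whereas OPCs and cycling progenitors did not overlap. It was at 3.04 and 2.19 CPM in early, 2.90 and 3.23 in mid and 6.50 and 2.84 in late deuterosomal cells, and at 1.39 and 1.01 in progenitors I. Fbxo43 was highest in mid deuterosomal cells, at 27.4 and 21.4 CPM, from 482 and 165 UMIs. It was at 3.36 and 4.65 CPM in early deuterosomal cells, 10.2 and 6.75 in late deuterosomal cells, 5.87 and 8.43 in early MCCs and 4.95 and 3.55 in MCCs. Cycling progenitors gave 3 and 1 UMIs of Fbxo43, progenitors I gave 0 and 2, and progenitors II and neuroblasts gave none in either library. The mid deuterosomal range did not overlap that of any other population, whereas late deuterosomal cells (8.45 ± 2.40 CPM, SD, n = 2) and early MCCs (7.15 ± 1.81) overlapped.

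The E2 enzymes also differed. Ube2c was at 2.25 and 1.06 CPM in progenitors I, 676 and 579.6 in cycling progenitors, and 649 and 721 in neuroblasts. In the lineage it was at 14.6 and 11.8 CPM in early, 155 and 124 in mid and 449.9 and 319 in late deuterosomal cells, then 27 and 14.1 in early MCCs and 2.25 and 1.88 in MCCs. Ube2s was present in every population, from 130.4 and 122 CPM in MCCs and 155 and 130.5 in progenitors I to 939 and 917 in neuroblasts. Mid deuterosomal cells, at 907 and 747 CPM, had the next highest mean, and their range did not overlap that of neuroblasts. Ube2s was at 759.9 and 664 CPM in cycling progenitors, 387 and 388 in early deuterosomal cells and 750.2 and 629 in late deuterosomal cells, and the mid, cycling and late ranges overlapped.

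**Figure D1:**
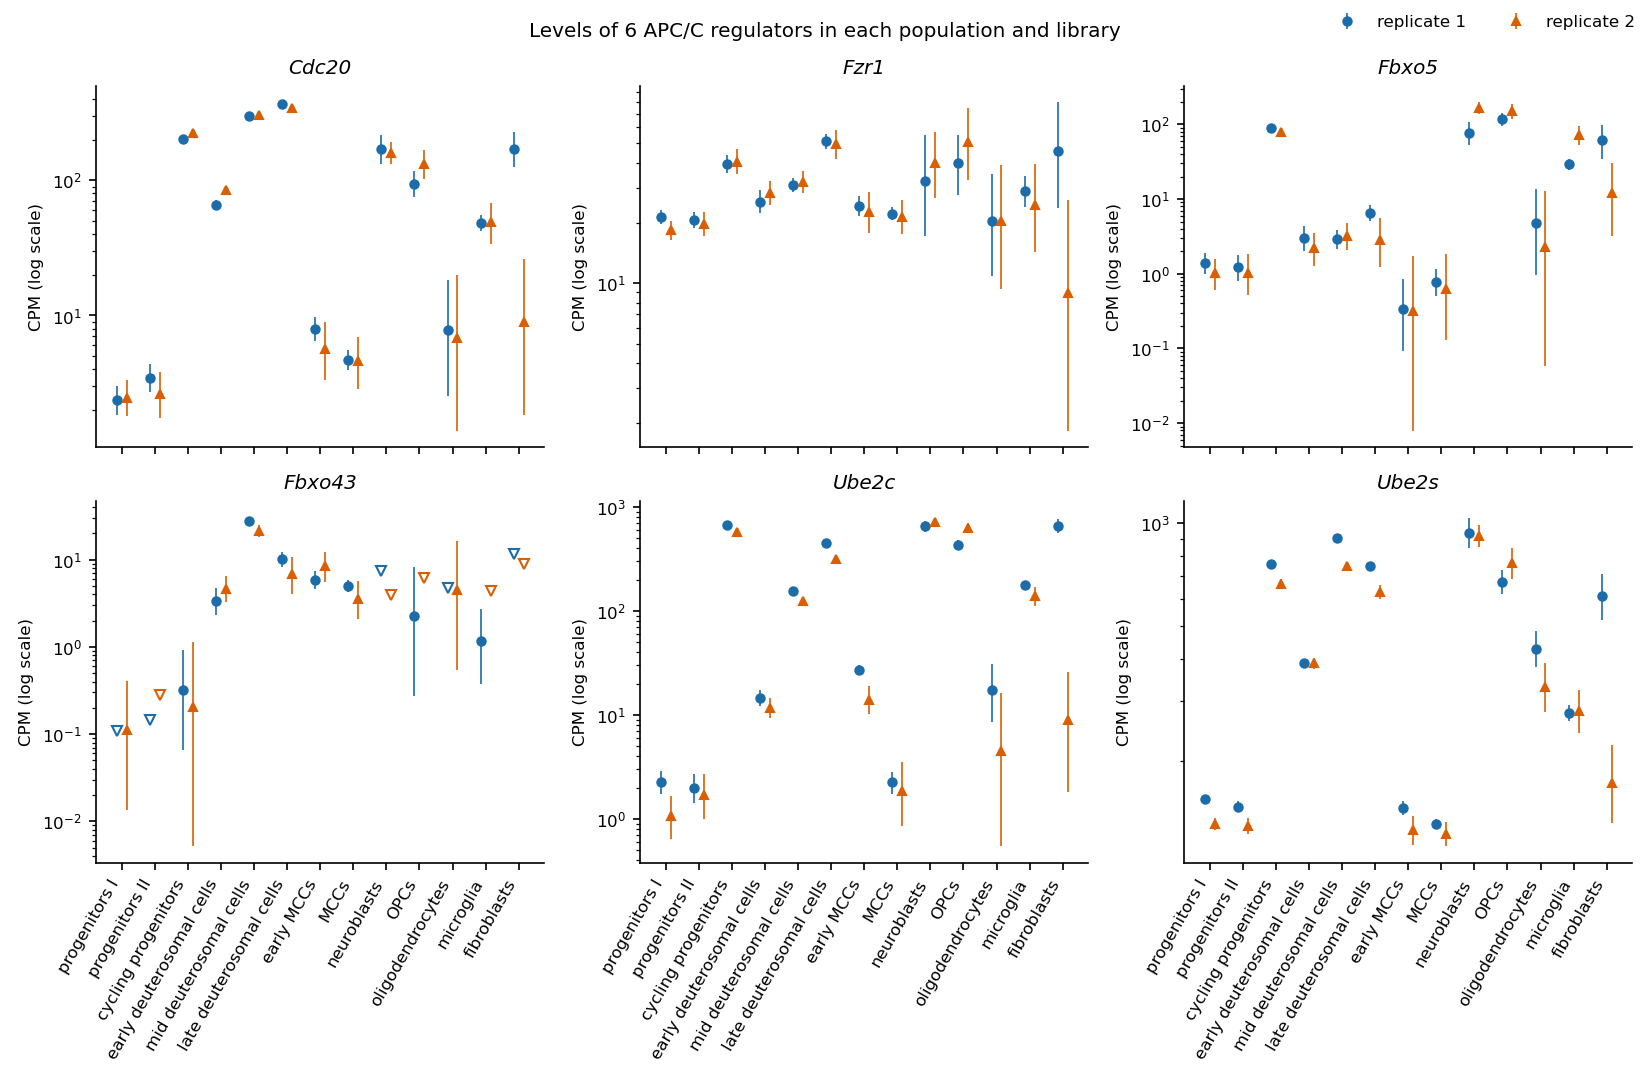
CPM (log axis) of the 6 genes in each deposited population except the unannotated cells, 1 point per replicate. Bars are exact 95% Poisson intervals that cover counting error only. Open triangles mark the level of 3 counts where a sum held 0 UMIs. Fbxo43 peaks in mid deuterosomal cells at 27.4 and 21.4 CPM, where Fbxo5 is at 2.90 and 3.23 CPM.

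In the tests, UMI sums per population and library were compared with edgeR's quasi-likelihood test, with Benjamini-Hochberg adjustment over 15877 genes, and all 6 members passed its low count filter. Fold changes are log2 values with the standard error (SE). The comparisons share populations, so they are not independent of each other. The opposite pattern of the Emi paralogs was known from earlier results of these data, so its tests are not independent evidence.

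Dividing cells had more of both activators, Fbxo5 and both E2 enzymes than resting cells. In cycling progenitors against progenitors I and II, 5 members rose and none fell, while 38.6% of all genes tested changed, 17.4% up and 21.3% down. The log2 fold change was 6.19 ± 0.15 for Cdc20 (adjusted p = 1.85e-19), 0.92 ± 0.10 for Fzr1 (1.55e-08) and 6.06 ± 0.22 for Fbxo5 (1.16e-14). Ube2c rose by 8.40 ± 0.27 (adjusted p = 2.25e-12) and Ube2s by 2.29 ± 0.09 (1.15e-16). Fbxo43 did not pass the test (adjusted p = 0.0523, though it passed with DESeq2, its size factors, thinned cells or no unannotated cells), and at 3 and 1 UMIs in cycling progenitors it was at or under the level of 3 counts. Among 7 spindle checkpoint genes 7 rose, with Bub1 at 8.46 ± 0.28 and Ttk at 7.46 ± 0.22. Of 18 APC/C substrates 17 rose (median log2 fold change 6.05, against −0.10 over all genes), led by the cyclin Ccna2 (7.99 ± 0.19) and the thymidine kinase Tk1 (7.78 ± 0.24). Pttg1, the securin, fell by 0.81 ± 0.14. Of the 14 core subunits of the complex 8 rose and 1 fell, with Anapc15 at 1.76 ± 0.10, Cdc27 at 0.77 ± 0.09 and Anapc2 at −0.30 ± 0.09. Of 11 other activators, E2 enzymes and regulators tested 4 rose, among them the kinases Plk1 (7.84 ± 0.17) and Cdk1 (4.28 ± 0.14), and 4 fell.

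Early deuterosomal cells already had more of 5 members than resting progenitors, and here Fbxo43 was among them. Against progenitors I and II 5 members rose and none fell, while 41.6% of all genes changed, 21.8% up and 19.8% down. Cdc20 rose by 4.70 ± 0.17 (adjusted p = 4.85e-16), Ube2c by 2.82 ± 0.39 (4.52e-05), Ube2s by 1.41 ± 0.10 (6.09e-12) and Fzr1 by 0.35 ± 0.10 (0.00576). With cells thinned to equal depth Ube2c was at 2.03 and Fzr1 no longer passed. Fbxo43 passed the test (adjusted p = 4.75e-09), but its fitted fold moves with edgeR's prior count, because progenitors held 0 and 2 UMIs. By counts it was at least 54.3-fold higher in replicate 1, against the level of 3 counts in that library, and 66.1-fold higher in replicate 2 (95% interval 17.0 to 568). In log2 CPM with 2 counts added, the single libraries gave 4.03 and 4.11. Fbxo5 had a log2 fold change of 1.07 ± 0.47 that did not pass (adjusted p = 0.0769) except with thinned cells. Cdc20b, a Cdc20 relative whose locus hosts microRNAs of the multiciliated programme, rose by 6.36 ± 0.23, the substrate kinases Nek2 and Aurka by 5.65 ± 0.20 and 4.54 ± 0.23, and Plk1 by 4.44 ± 0.25. Of the 14 core subunits 6 rose and none fell, of 7 checkpoint genes 6 rose and 1 fell, and of 18 substrates 15 rose and none fell.

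Mid deuterosomal cells had more of all members but Fbxo5 than early deuterosomal cells. Of the members 5 rose and none fell, while 49% of all genes changed, 28.2% up and 20.8% down. Ube2c rose by 3.51 ± 0.30 (adjusted p = 2.96e-07), Fbxo43 by 2.73 ± 0.30 (7.55e-08), Cdc20 by 2.12 ± 0.15 (1.64e-10) and Ube2s by 1.19 ± 0.11 (6.78e-09). Fzr1 rose by 0.34 ± 0.11 (adjusted p = 0.0142), a call lost without the replicate block (adjusted p = 0.0858). Fbxo5 was at 0.30 ± 0.47, with a 95% interval from −0.68 to 1.29. The mitotic cyclins Ccnb2 and Ccnb1 rose by 3.95 ± 0.20 and 3.16 ± 0.15, Plk1 by 3.06 ± 0.15 and Cdc20b by 1.21 ± 0.15. Core subunits rose in 9 of 14 cases and fell in 1, checkpoint genes in 6 and 1 of 7, and substrates in 13 and 1 of 18.

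Late deuterosomal cells differed from mid deuterosomal cells in the balance between members. Here 2 members rose and 2 fell, while 21.8% of all genes changed, 8.61% up and 13.2% down. Ube2c rose by 1.37 ± 0.23 (adjusted p = 0.000799) and Fzr1 by 0.60 ± 0.11 (0.000242). Fbxo43 fell by 1.55 ± 0.28 (adjusted p = 0.000278). Ube2s fell by 0.34 ± 0.11 (adjusted p = 0.0300), a call lost without the replicate block (0.347) and in most other alternatives. Cdc20 was at 0.15 ± 0.14 (adjusted p = 0.470, past the test only with thinned cells) and Fbxo5 at 0.82 ± 0.42 (0.187). The single-library values of Fbxo5 had opposite signs, 1.03 and −0.28. Cdc20b fell by 1.31 ± 0.16 and Nek2 by 1.03 ± 0.13, whereas Ccnb2 rose by 0.87 ± 0.14 and Ccna2 by 0.73 ± 0.25. No core subunit rose and 2 fell, no checkpoint gene rose and 1 fell, and substrates rose in 4 and fell in 4 of 18 cases.

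In early MCCs all members but Fbxo43 were lower than in late deuterosomal cells. None rose and 5 fell, while 22.8% of all genes changed, 10.3% up and 12.4% down. Cdc20 fell by 5.59 ± 0.20 (adjusted p = 9.75e-15), Ube2c by 4.13 ± 0.29 (1.37e-07), Ube2s by 2.35 ± 0.12 (1.92e-13) and Fzr1 by 1.08 ± 0.12 (2.08e-07). Fbxo5 fell by 4.03 ± 0.77 (adjusted p = 0.000652), from 4 and 1 UMIs in early MCCs, and its single-library values were −3.61 and −2.49. Fbxo43 was at −0.44 ± 0.33 with a 95% interval from −1.13 to 0.25 (adjusted p = 0.383), and its single-library values had opposite signs, −0.77 and 0.32. Aurka fell by 6.44 ± 0.32, Ccnb1 by 5.48 ± 0.20, Plk1 by 5.38 ± 0.21 and Cdk1 by 3.83 ± 0.19. Of the core subunits 8 fell, among them Cdc27 (by 1.06 ± 0.11), and Anapc2 rose by 0.41 ± 0.11. Of 7 checkpoint genes 6 fell, and of 18 substrates 13 fell. Between early MCCs and MCCs only Ube2c among the members passed the test, with 10.9% of all genes changed, 4.56% up and 6.29% down. It fell by 3.44 ± 0.43 (adjusted p = 0.000195), with −3.47 and −2.75 in the single libraries, and Ccnb2 fell by 3.98 ± 0.28.

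Between mid deuterosomal cells and cycling progenitors the Emi paralogs differed in opposite directions. Here 3 members rose and 2 fell, while 63% of all genes changed (34.4% up and 28.6% down). Fbxo5 fell by 4.68 ± 0.26 (adjusted p = 1.08e-11), which by counts was 30.4-fold lower in replicate 1 (95% interval 22.9 to 41.2) and 24.6-fold lower in replicate 2 (16.4 to 38.4). Fbxo43 passed the test in the other direction (adjusted p = 4.91e-11). By counts it was 86.2-fold higher in replicate 1 (29.3 to 419) and 104-fold higher in replicate 2 (18.4 to 4132), where the wide intervals come from 3 and 1 UMIs in cycling progenitors. Its fitted log2 fold change was 6.52 ± 0.49, with 5.57 after thinning and 5.79 and 5.74 in the single libraries. Early deuterosomal cells were set against cycling progenitors by counts only, with no test. There Fbxo5 was 29.1-fold lower in replicate 1 (20 to 44.1) and 36.3-fold lower in replicate 2 (22.1 to 64.2), and Fbxo43 was 10.6-fold higher (3.29 to 54.0) and 22.6-fold higher (3.80 to 920.3). Ube2c fell by 2.06 ± 0.24 (adjusted p = 2.52e-06). Cdc20 rose by 0.62 ± 0.14 (adjusted p = 0.000399), a call that DESeq2's Wald test did not make (0.0704). Ube2s rose by 0.32 ± 0.11 (adjusted p = 0.0154), a call lost without the replicate block (0.173) and in several other alternatives. Fzr1 was at −0.23 ± 0.11 (adjusted p = 0.0655) and was called lower under some alternatives.

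The rest of the pathway was mixed in mid deuterosomal cells against cycling progenitors. Of 18 substrates 12 fell and 3 rose (median −1.48, against 0.07 over all genes). Tk1 fell by 6.93 ± 0.31 and the replication licensing factor Cdc6 by 5.88 ± 0.42, whereas Pttg1 rose by 2.17 ± 0.16 and Nek2 by 1.63 ± 0.13. Checkpoint genes fell in 5 of 7 cases, with Ttk at −1.46 ± 0.15 and Mad2l2 at −1.44 ± 0.16, and rose in 2, Mad1l1 at 0.38 ± 0.15 and Bub3 at 0.25 ± 0.10. Of the 14 core subunits 7 rose and 2 fell: Cdc27 was at 0.97 ± 0.10 and Anapc13 at 0.87 ± 0.16, and Anapc15 and Cdc16 were at −0.75 ± 0.12 and −0.87 ± 0.12. Cdc20b, at 68.9 and 80.7 CPM against 1.49 and 0.21, rose by 6.22 ± 0.27. Btrc, part of the ligase that targets Emi1, rose by 1.26 ± 0.13, and Cdk2 fell by 2.08 ± 0.20.

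Late deuterosomal cells against cycling progenitors gave the same counts, 3 higher and 2 lower, with 53.1% of all genes changed (28.1% up and 25% down). Fbxo5 fell by 3.86 ± 0.28 (adjusted p = 7.35e-10), with −4.70 in replicate 2 alone. Fbxo43 passed (adjusted p = 1.75e-07), at 31.9-fold higher by counts in replicate 1 (10.6 to 157) and 32.9-fold in replicate 2 (5.23 to 1367). Its fitted log2 fold change was 4.98 ± 0.59, with 4.29 and 4.00 in the single libraries. Cdc20 rose by 0.78 ± 0.14 (adjusted p = 5.91e-05) and Fzr1 by 0.37 ± 0.11 (0.00755), the latter lost without the replicate block (0.0546). Ube2c fell by 0.69 ± 0.23 (adjusted p = 0.0204), lost without the replicate block (0.182) and by DESeq2 (0.129). Ube2s was at −0.02 ± 0.11 (adjusted p = 0.902), with a 95% interval from −0.25 to 0.21. Substrates fell in 11 and rose in 3 of 18 cases, and checkpoint genes fell in 5 and rose in 1 of 7.

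**Figure D2:**
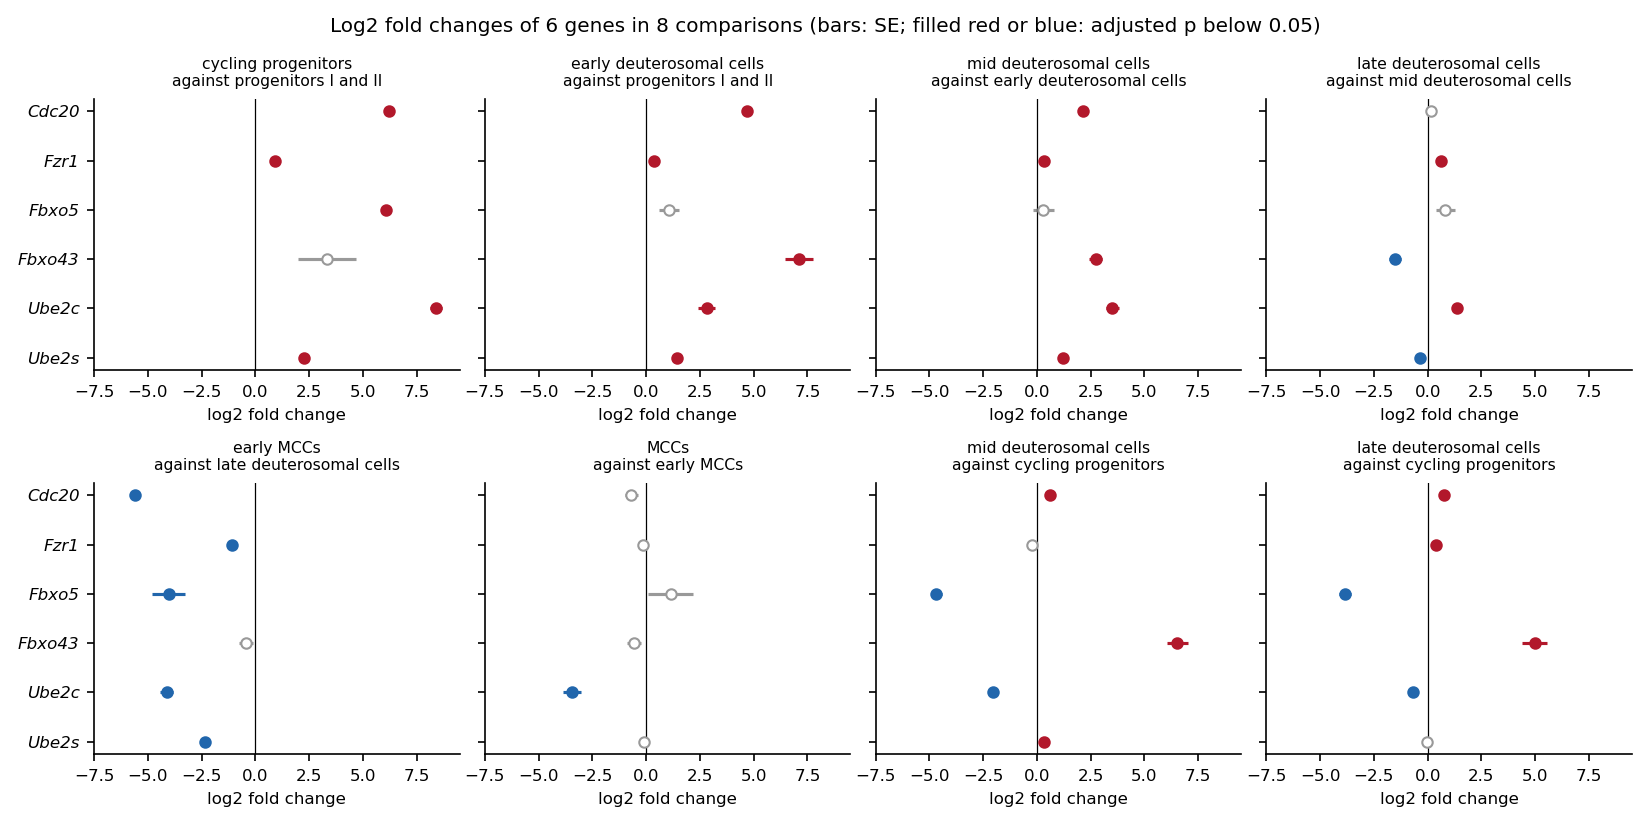
Fitted log2 fold changes with SE bars for the 6 genes in the 8 comparisons between populations; filled points passed an adjusted p of 0.05, red higher and blue lower. Fbxo5 and Fbxo43 lie on opposite sides of 0 in mid and late deuterosomal cells against cycling progenitors (−4.68 and 6.52, −3.86 and 4.98). Fbxo43 values against progenitors or cycling progenitors move with edgeR's prior count.

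The deposited cell cycle classes separate levels inside a population. These differences carry no test, because the classes may have been scored from the same genes. In cycling progenitors Cdc20 was at 51.2 and 44.4 CPM in class S and 421 and 459 in S/G2, and Ube2c at 239 and 187 in S and 1390 and 1165 in S/G2. Fbxo5 came earlier: it was at 41.2 and 42.9 CPM in G1, 117 and 117 in S and 120.1 and 99.7 in S/G2, and Fzr1 was at 25.6 and 25.0 in S and 63.3 and 63.3 in S/G2. In mid deuterosomal cells Cdc20 was at 161 and 182 CPM in S and 336 and 331 in S/G2. Fbxo43 was at 16.9 and 15 CPM in S and 30.0 and 22.5 in S/G2, so both classes held it in both replicates. The cells of class G2/M were low in mitotic genes: in cycling progenitors the cyclin Ccnb1 was at 27.9 and 49.2 CPM, against 385 and 443 in S/G2, from 17 and 8 cells. Cdc20 there was at 7.96 and 41.0 CPM, so in these cells the class goes against its name.

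**Figure D3:**
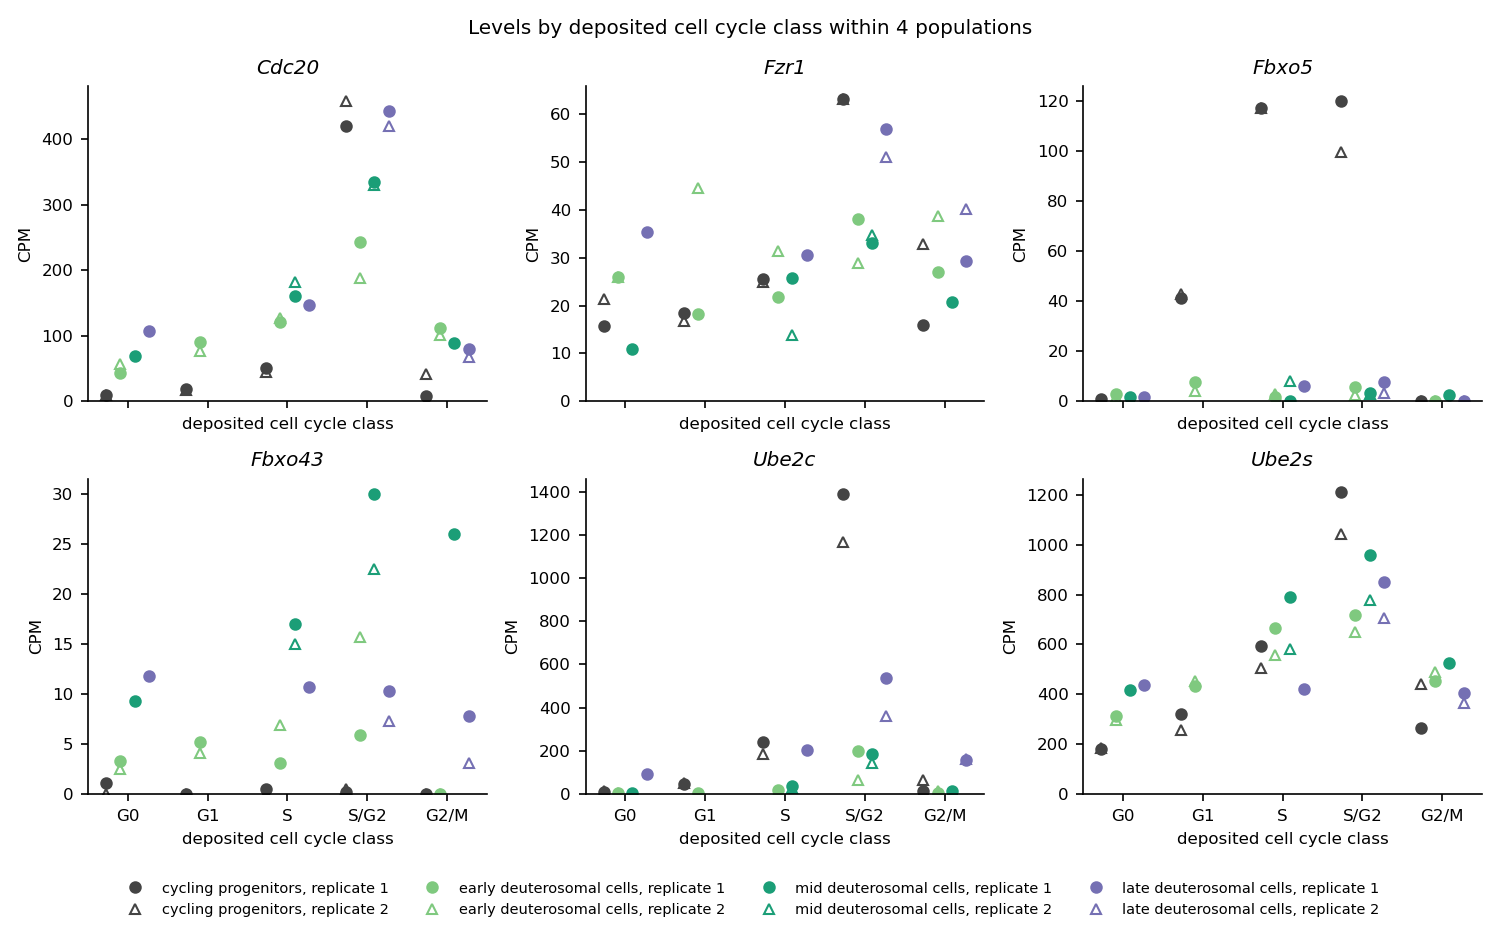
CPM (linear axis) of the 6 genes by deposited cell cycle class in cycling progenitors and the 3 deuterosomal stages, 1 point per replicate, for classes with at least 8 cells. In cycling progenitors Cdc20 is at 421 and 459 CPM in S/G2 and at 7.96 and 41.0 in G2/M.

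Within a class the Emi paralogs kept their opposite directions, while Cdc20 and Ube2s turned in S/G2. Because the classes may have been scored from the same genes, differences tested within a class, here and below, may be shaped by how its cells were chosen. In class S/G2, mid deuterosomal cells against cycling progenitors, 1 member rose and 5 fell, with 65.8% of 13634 genes changed (31.7% up and 34.2% down). Fbxo5 fell by 5.12 ± 0.22 (adjusted p = 1.13e-23), or 35.0-fold by counts in replicate 1 (26.0 to 47.9) and 36.7-fold in replicate 2 (22.7 to 63.0). The class fits count more sums of the same 2 cultures as separate units. For Fbxo5 the degrees of freedom were 40.6, against 18.7 over whole populations. Smaller p-values in the class fits, here and below, are therefore not stronger evidence. Fbxo43 rose (adjusted p = 1.94e-18), 124-fold by counts in replicate 1 (22.2 to 4914) and 49.5-fold in replicate 2 (8.74 to 1966), and its fitted value of 6.33 ± 0.47 was 4.90 in replicate 2 alone. Cdc20 fell by 0.41 ± 0.09 (adjusted p = 9.24e-05), Fzr1 by 0.91 ± 0.12 (1.67e-09), Ube2c by 2.98 ± 0.12 (3.26e-21) and Ube2s by 0.39 ± 0.08 (2.56e-05, and 0.0673 without the replicate block). So Cdc20 was higher in mid deuterosomal cells over whole populations and lower within S/G2, and the class makeup of the populations differs as given above. Of 18 substrates 16 fell and 2 rose, with Tk1 at −7.43 ± 0.25 and Ccna2 at −5.10 ± 0.13, and 6 of 7 checkpoint genes fell.

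In class S the same pair gave 3 members higher and 2 lower, with 48.8% of genes changed (24.1% up and 24.7% down). Cdc20 rose by 1.79 ± 0.15 (adjusted p = 3.06e-16), Ube2s by 0.31 ± 0.09 (0.00262, and 0.172 without the replicate block) and Ube2c fell by 2.80 ± 0.20 (8.02e-14). Fbxo5 fell by 5.70 ± 0.39 (adjusted p = 4.96e-16), resting on 0 and 7 UMIs in mid deuterosomal cells. By counts it was at least 87.8-fold lower in replicate 1, against the level of 3 counts, and 14.6-fold lower in replicate 2 (6.87 to 37.0), and the single libraries gave −8.47 and −3.86. Fbxo43 passed in the other direction (adjusted p = 2.41e-08), at 37.1-fold in replicate 1 (6.26 to 1502) and at least 5.40-fold in replicate 2, and its fitted 5.64 ± 0.81 was 4.47 in replicate 1 alone. Fzr1 was at −0.20 ± 0.24 (adjusted p = 0.547).

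For late deuterosomal cells against cycling progenitors in S/G2, 1 member rose and 3 fell, with 56.9% of genes changed (27.6% up and 29.3% down). Fbxo5 fell by 4.09 ± 0.23 (adjusted p = 2.26e-19), with −4.84 in replicate 2 alone. Fbxo43 passed in the other direction (adjusted p = 2.60e-09). By counts it was 42.6-fold higher in replicate 1 (7.42 to 1704) and 16.0-fold higher in replicate 2 (2.49 to 672). Its fitted value was 4.80 ± 0.64, with 3.26 in replicate 2 alone. Ube2c fell by 1.53 ± 0.12 (adjusted p = 1.71e-13) and Ube2s by 0.55 ± 0.08 (3.05e-08). Cdc20 was at −0.04 ± 0.09 and Fzr1 at −0.22 ± 0.13, neither past the test. In class G2/M, with 17 and 8 cycling cells, Cdc20 was 2.04 ± 0.51 higher in late deuterosomal cells (adjusted p = 0.00191) and Ube2c 2.41 ± 0.54 higher (0.00123), 2 of 6 members, against 16.2% of 12563 genes changed, 9.23% up and 6.96% down. The single libraries gave 3.48 and 1.04 for Cdc20 and 3.89 and 1.61 for Ube2c. Fbxo5 had no UMI in this class in either population, so no fold can be given.

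In both replicates the Emi paralog seen in more cells was Fbxo5 in cycling progenitors and Fbxo43 in mid deuterosomal cells, and most cells of both populations showed neither. Each cell was thinned to 5000 UMIs, and shares are percent of cells with at least 1 UMI, so a cell without a UMI may still express the gene. In cycling progenitors 168 of 518 cells in replicate 1 had Fbxo5 only (32.4%, exact Clopper-Pearson 95% interval 28.4 to 36.7) and 61 of 233 in replicate 2 (26.2%, 20.7 to 32.3). Fbxo43 was seen there in 1 cell of each library, in replicate 2 together with Fbxo5. In mid deuterosomal cells 118 of 875 cells had Fbxo43 only (13.5%, 11.3 to 15.9) and 31 of 346 in replicate 2 (8.96%, 6.17 to 12.5). Fbxo5 only was seen in 12 and 4 of these cells, and both paralogs in 2 and 0. Neither was seen in 349 and 171 of the cycling progenitors (67.4% and 73.4%) and in 743 and 311 of the mid deuterosomal cells (84.9% and 89.9%). Within mid deuterosomal cells of replicate 1, Fbxo5 was seen in 1.67% of cells with Fbxo43 (0.202 to 5.89) and 1.59% of the others (0.824 to 2.76). With no thinning 24 of these cells held both paralogs and 23 held Fbxo5 only, which put Fbxo5 in 7.55% of cells with Fbxo43 (4.90 to 11) and 4.09% of the others (2.61 to 6.08). In replicate 2 the unthinned shares were 4.24% (1.39 to 9.61) and 5.11% (2.67 to 8.75). Progenitors I had Fbxo5 in 0.485% and 0.495% of cells and Fbxo43 in none, at median depths of 10490 and 13128 UMIs before thinning, against 17984 and 20436 in mid deuterosomal and 16952 and 20007 in cycling cells.

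The other populations are given with their counts in replicates 1 and 2. Early deuterosomal cells had Fbxo5 only in 13 and 3 cells and Fbxo43 only in 12 and 10, of 635 and 443. Late deuterosomal cells had 11 and 4 with Fbxo5 only and 27 and 3 with Fbxo43 only, of 437 and 114. Early MCCs had Fbxo43 only in 21 of 648 and 6 of 150 cells, and MCCs in 44 of 2013 and 4 of 261, with Fbxo5 only in 1 and 0 and in 6 and 1. Neuroblasts had Fbxo5 in 11 of 30 and 33 of 69 cells and OPCs in 27 of 67 and 16 of 34, and neither had Fbxo43. Over the UMIs of both paralogs, Fbxo43 made up 0.426% and 1.08% in cycling progenitors, 50% and 76.9% in early, 89.9% and 89.5% in mid and 70.7% and 42.9% in late deuterosomal cells. The means were 0.750% ± 0.459, 63.5% ± 19.0, 89.7% ± 0.277 and 56.8% ± 19.7 (SD, n = 2). The late value of replicate 2 rests on 7 UMIs (95% interval 9.90 to 81.6). The capture of the paralogs may differ, so the share is to be compared between populations only. With 2 libraries no test over samples was made of these shares.

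**Figure D4:**
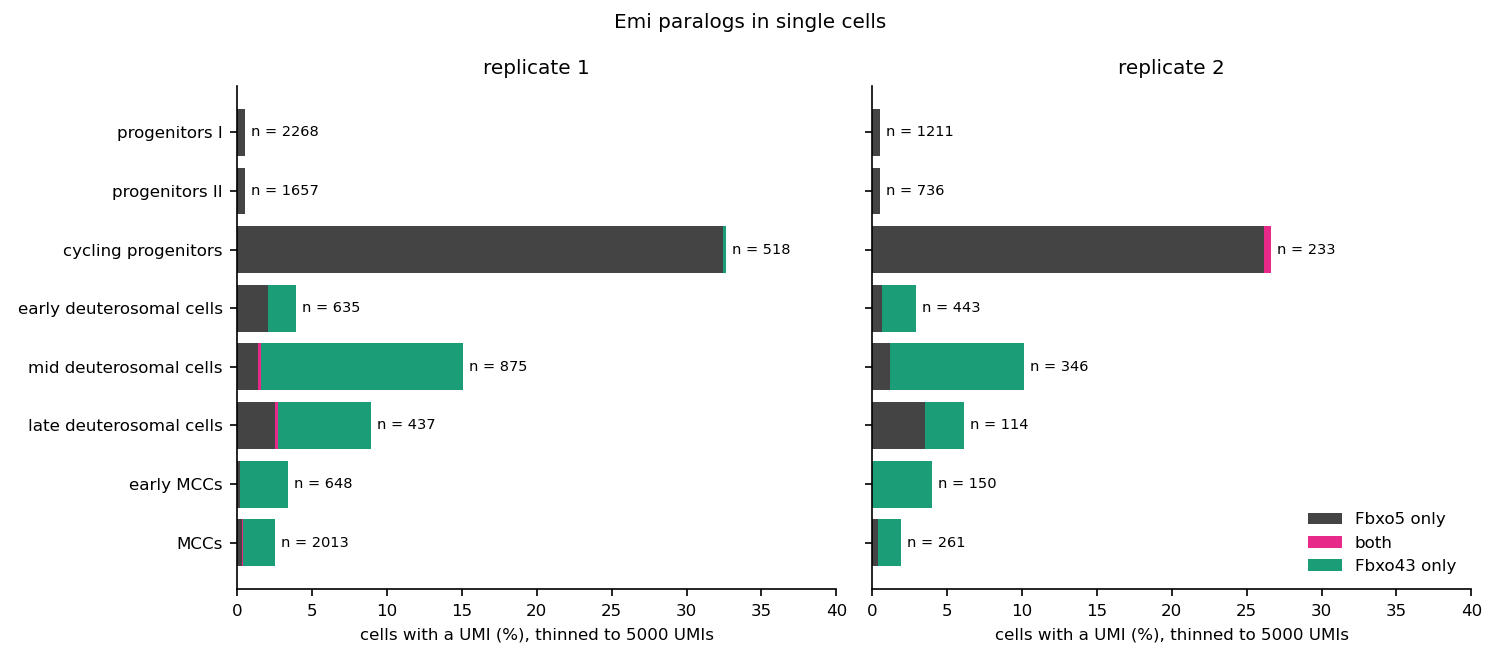
Percent of cells, thinned to 5000 UMIs, with a UMI of Fbxo5 only, of both paralogs or of Fbxo43 only, by population and replicate. Fbxo5 only fills 32.4% and 26.2% of cycling progenitors, and Fbxo43 only 13.5% and 8.96% of mid deuterosomal cells.

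Within cycling progenitors, cells with Fbxo5 only were richer in other genes of dividing cells than cells with neither paralog. Ube2c was seen in 82.7% against 38.4% of these cells in replicate 1 and 77.0% against 45.6% in replicate 2, and Ccna2 in 66.1% against 35.2% and 65.6% against 41.5%. Cdc20 was seen in 44.0% against 31.2% and 41.0% against 33.3%. Of the cells with Fbxo5 only, 56.5% and 60.7% were in class S/G2, 33.3% and 31.1% in S and 9.52% and 8.20% in G1. Of the cells with neither, 31.8% and 34.5% were in S/G2 and 19.5% and 15.2% in S. A further 26.6% and 25.1% of them were in G1 and 17.2% and 20.5% in G0. So these groups differ in class makeup, and its part in the gene shares was not tested. Median depths before thinning were 18504 UMIs with Fbxo5 only against 16257 with neither in replicate 1, and 23928 against 18723 in replicate 2. Within mid deuterosomal cells, those with Fbxo43 only had values near those with neither for several genes. Cdc20 was seen in 64.4% against 69.0% and 71.0% against 73.6%, and Ube2c in 38.1% against 39.6% and 35.5% against 35.0%. Deup1, which builds the deuterosome, was seen in 100% against 98.7% and 100% against 97.4%, and Ccna2 in 1.69% against 3.10% and 3.23% against 3.22%. Cdc20b was seen in 30.5% against 30.3% in replicate 1 and in 51.6% against 29.6% in replicate 2, so the replicates differ there. These shares describe cells of 1 library each and carry no test.

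Pairs of members also shifted in share, to be compared between populations only. Cdc20 made up 9.92% and 11.8% of Cdc20 and Fzr1 UMIs in progenitors I, 83.6% and 84.6% in cycling progenitors, 90.6% and 90.5% in mid deuterosomal cells and 17.4% and 17.6% in MCCs. Ube2c made up 47.1% and 46.6% of Ube2c and Ube2s UMIs in cycling progenitors. In the lineage it made up 3.64% and 2.94% in early, 14.6% and 14.3% in mid and 37.5% and 33.6% in late deuterosomal cells, so each stage was apart from the next in both replicates. Cells with Cdc20, Ube2c and Ube2s together were 27.6% and 27% of cycling progenitors, 0.945% and 1.35% of early, 30.5% and 26.6% of mid and 57.9% and 45.6% of late deuterosomal cells.

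The genes with the most similar pattern over the 26 sums of population and library differed by member. These are Pearson correlations of log2 CPM, given as a description; sums of 1 library share its culture and run. For Cdc20 they were Ckap2l (r = 0.979), Ccnb1, Prc1, Dbf4 and Plk1, and for Fzr1 Parpbp (0.912), Fanci, Bub3, Cenpp and Spag5. For Fbxo5 they were the flap endonuclease gene Fen1 (0.974), Ncapg2, Exo1, Lrr1 and Mcm10, and for Fbxo43 Fam50b (0.966), Dap3, Cep95, Crocc2 and Gm33050. For Ube2c they were the centromeric histone gene Cenpa (0.990), Spc24, Knstrn, Bub1b and Cdkn3, and for Ube2s the tubulin gene Tubg1 (0.972), Ska3, Tpx2, Lsm2 and Exosc8. Between the members, r was 0.940 for Cdc20 and Ube2s, 0.902 for Cdc20 and Ube2c and −0.403 for Fbxo5 and Fbxo43.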

How the data were processed

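Gene expression was measured with the 10x Genomics 3′ v3 kit in 2 libraries. The deposited table holds UMI counts, all whole numbers; the submitters' processing notes name Cell Ranger 3 and 5.0.1 and the mm10 build. Not given in the sources used here are the version used for each library and how populations, classes and doublets were called. No cell was removed.

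Counts were summed per population and library (at least 20 cells in both, 13 populations, 26 sums; this left out fibroblasts, of which replicate 1 had 18). Robust two-sided quasi-likelihood tests were run in edgeR 4.0.16 under R 4.3.3, with population and library as terms (12 residual degrees of freedom), TMM factors from 0.739 to 1.20, the default low count filter (15877 genes) and an adjusted p of 0.05. The library was a block because its populations share a culture: their deviations correlated with a median of 0.184 (lowest −0.00168). Each SE was taken as the fold change (log2) over the square root of F. The class fit used 38 sums and 13634 genes. The G2/M comparison needed a minimum of 8 cells (62 sums, 12563 genes), chosen, like the S class and late S/G2 comparisons, after cell numbers were seen.

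Levels are CPM of sums. Shares used cells thinned to 5000 UMIs, leaving out 607 shallower cells. Intervals (Clopper-Pearson, Poisson, and conditional binomial for ratios; scipy 1.17.1) and the limit of 3 counts cover counting error only. Of the gene identifiers 99.6% were found in GENCODE M21. The fit was tested on simulated counts. The members, gene lists and comparisons were chosen with earlier results of these data known. Named genes are the members, Cdc20b, up to 2 highest and 2 lowest called genes per list, and the 5 most similar genes per member among those with a mean of at least 5 CPM. Alternatives were DESeq2 1.42.0, its size factors, no low count filter, no replicate block, thinning, 34 cells per sum, each replicate alone (log2 CPM with 2 counts added, no test), and fits without the deepest 5% of cells or without unannotated cells.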

Additional observations from a re-analysis of the deposited data

Results flagged for a closer look

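Fibroblasts, with 18 and 22 cells, were outside every test, and several members were above the level that a count of 0 allows there. In replicate 1 Cdc20 was at 171 CPM, Fzr1 at 45.7, Fbxo5 at 61.0, Ube2c at 659 and Ube2s at 609.5 CPM. In replicate 2 Fbxo5 was at 11.9 CPM and Ube2s at 172, while Cdc20 and Ube2c were at 8.92 CPM, from 3 UMIs each. Class S/G2 held 27.8% of these cells in replicate 1 and none in replicate 2, and the 6 dividing-cell markers summed to 1550 and 187 CPM. Fbxo43 had no UMI in either library.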

How the results depend on the processing

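Of the members lower in late against mid deuterosomal cells, 2 in the reported fit, 1 was left with DESeq2's size factors, with DESeq2's Wald test, with no replicate block, with thinned cells and without unannotated cells, and 0 with 34 cells per sum. Members higher in mid deuterosomal cells against cycling progenitors went from 3 to 1 with the Wald test and with 34 cells, and members lower in late deuterosomal cells against cycling progenitors from 2 to 1 with the Wald test and with no replicate block. With 34 cells, the higher members were 2 for early deuterosomal cells against progenitors, 3 for mid against early, 1 for late against mid and 1 for late against cycling, and 3 were lower in early MCCs. The libraries as a replicate block changed 7 calls out of 66, each lost without it. Fbxo43's share of Emi UMIs was 0% in cycling, 84.0% in mid and 78.9% in late cells at 2500 UMIs, the last the mean of 57.9% and 100% (2 UMIs). With no thinning it was 88.6% in mid cells, and 61.0% and 70.4% in late cells of replicates 1 and 2, the reverse of their order after thinning; leaving out a replicate gave 0.426% to 1.08% in cycling, 50% to 76.9% in early, 89.5% to 89.9% in mid and 42.9% to 70.7% in late cells.

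Leaving single libraries aside, signs turned for 9 values. Those of Fzr1 had passed the test in the reported fit and the others had not. Ube2s in late against cycling cells was at 0.00568 (size factors), 0.00572 (Wald test) and 0.0835 (34 cells). With 34 cells Fzr1 was at −0.44 in early cells against progenitors (adjusted p = 0.617) and −0.0801 in late against cycling cells, Fbxo5 at −0.25 in mid against early cells, and Cdc20 at 0.94 in MCCs against early MCCs. Cdc20 in S/G2 late against cycling cells was at 0.0559 (size factors) and 0.0508 (without the deepest 5% of cells). Fewer cells were tested with 34 per sum; otherwise the cause was not tested. The G2/M comparison could not be fitted with at least 20 cells. A single library is a value with no test. There signs also turned for values that had not passed in the reported fit. In replicate 2 Fbxo5 was at −0.28 in late against mid deuterosomal cells, and Fbxo43 at 0.32 in early MCCs against late deuterosomal cells. In replicate 1 Fzr1 was at 0.0299 in class S mid against cycling cells, and Cdc20 at 0.12 in S/G2 late against cycling cells.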
